A study of Mus musculus with 20 samples.

Results

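A set of 10 cytosolic sulfotransferase genes of the mouse, Sult2a1, Sult2a2, Sult2a8, Sult1e1, Sult1a1, Sult1b1, Sult1c2, Sult1d1, Sult3a1 and Sult5a1, were followed in liver libraries from normal mice and from mice whose hepatocytes lack Eed, before and after partial hepatectomy. The members, 10 of the 46603 gene identifiers in the count files, were chosen by gene name, and 3 of them, Sult2a1, Sult2a2 and Sult1e1, were picked because their read counts in these libraries differ between the groups. For those 3 the levels are given as a description with no test, and the other 7 members were tested where their counts allowed. All 10 members were found in the files, 9 had more than 1 count, and 6 of the 7 members that could be tested passed the filter on low counts; Sult3a1 did not.

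Cytosolic sulfotransferases move a sulfuryl group from the activated donor PAPS onto steroids, bile acids, phenols and amines, which makes these compounds more soluble in water and changes their activity and excretion. The Sult1 enzymes act mainly on phenols, estrogens, thyroid hormones and catecholamines, and the Sult2a enzymes on hydroxysteroids and bile acids. In mouse liver several of these genes are known to differ between the sexes: Sult2a1, Sult2a2 and Sult3a1 transcripts are abundant in females and low in adult males.

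All 20 libraries came from the livers of male mice aged 2 months, labelled as strain C57BL6/J. Wild-type mice (WT) were bought from The Jackson Laboratory, while the knockout mice (EedHepKO, here KO) carried Alb:Cre, which acts in cells that express the albumin promoter, and an Eed allele in which exons 3 and 6 lie beside loxP sites. EED is a core subunit of polycomb repressive complex 2 (PRC2), the enzyme complex that methylates lysine 27 of histone H3. The 4 groups of 5 libraries were WT baseline and KO baseline, from lobes 1, 2 and 3 removed at the partial hepatectomy (PHx), and WT after PHx and KO after PHx, from lobes 4, 5 and 6 taken at 30 h (1 library per genotype), 40 h (2 per genotype) or 48 h (2 per genotype). Genotype cannot be told apart from the source colony, and the response to PHx cannot be told apart from the lobes sampled. Libraries are named by the number of the mouse in the labels (WT 1 to 5, KO 7, 8, 10, 11 and 12), which ties baseline and regenerating lobes of 9 mice together; WT baseline replicate 1 carries no mouse number.

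Sult2a1 and Sult2a2 are near-identical copies, so the sequences that let reads be assigned to one or the other are shown first. Sult2a1 lies on chromosome 7 from 13796246 to 13837409 on the minus strand, and Sult2a2 lies 16.6 kb away, from 13733505 to 13779636 on the plus strand (mm10, GENCODE M21). Their annotated coding sequences have 570 identical bases of 582 aligned, an identity of 97.9%, and the Sult2a2 model is shorter, with 582 coding bases against 855. Bases 140 to 259 of both coding sequences differ at 5 positions, which are in capitals.
Sult2a1: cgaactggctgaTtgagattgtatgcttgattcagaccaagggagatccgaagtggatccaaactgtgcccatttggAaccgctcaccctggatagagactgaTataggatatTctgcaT
Sult2a2: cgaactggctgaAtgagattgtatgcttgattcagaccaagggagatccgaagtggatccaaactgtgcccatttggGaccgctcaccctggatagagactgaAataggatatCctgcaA
Of the 75-base words in the annotated exons, 80.5% of those of Sult2a1 and 52.8% of those of Sult2a2 occur in no other gene, and 173 are shared between the pair. Since only reads that mapped to a single place were counted, the levels of both genes, and Sult2a2 the more, may be understated and may in part be exchanged between them. For the other 8 members at least 96.6% of the words were unique.

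The stretches before the start sites of 4 sulfotransferase genes are shown because the genes of each cluster differ in their pattern. Sult2a5 and Sult2a8 stand near the opposite ends of the Sult2a cluster, and Sult1d1 and Sult1e1 are 6.94 kb apart on chromosome 5. The 250 bases before each RefSeq start (GRCm38.p6) are given 5′ to 3′ on the gene's strand, and capitals mark matches to any of 4 letter strings searched on both strands.
Sult2a5 (chr7:13623717-13623966, plus strand): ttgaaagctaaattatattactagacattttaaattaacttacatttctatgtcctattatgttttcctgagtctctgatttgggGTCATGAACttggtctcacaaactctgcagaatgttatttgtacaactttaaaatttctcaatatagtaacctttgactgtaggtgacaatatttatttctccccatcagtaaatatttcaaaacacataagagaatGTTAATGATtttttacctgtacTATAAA
Sult2a8 (chr7:14438552-14438801, minus strand): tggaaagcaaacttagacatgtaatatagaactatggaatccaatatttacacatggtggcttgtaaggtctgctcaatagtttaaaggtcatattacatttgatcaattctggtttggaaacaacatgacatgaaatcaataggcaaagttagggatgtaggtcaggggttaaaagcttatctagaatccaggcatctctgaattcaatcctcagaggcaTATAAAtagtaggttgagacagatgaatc
Sult1d1 (chr5:87569007-87569256, minus strand): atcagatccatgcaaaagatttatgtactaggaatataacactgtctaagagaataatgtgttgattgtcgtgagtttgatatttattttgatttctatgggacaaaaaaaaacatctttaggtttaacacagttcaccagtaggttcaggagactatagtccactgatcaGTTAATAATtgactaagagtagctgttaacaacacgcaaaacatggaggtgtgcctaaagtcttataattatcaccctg
Sult1e1 (chr5:87591612-87591861, minus strand): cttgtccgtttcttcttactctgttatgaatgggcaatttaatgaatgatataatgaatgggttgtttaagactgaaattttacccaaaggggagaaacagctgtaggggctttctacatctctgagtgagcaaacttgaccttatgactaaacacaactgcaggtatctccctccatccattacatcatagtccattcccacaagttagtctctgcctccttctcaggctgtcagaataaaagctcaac
The strings were GTCATGAAC, an inverted repeat core, CAAAGTCCA, a common HNF4 sequence, GTTAATNAT, the first part of the HNF1 palindrome, and TATAAA. They were chosen after the sequences had been seen, and a match is only a match of letters. Sult2a5 holds GTCATGAAC from base -165, GTTAATNAT from -28 and TATAAA from -6. In the other windows of the cluster, Sult2a4 holds GTCATGAAC from -244 and GTTAATNAT from -107, Sult2a6 holds GTCATGAAC from -209, GTTAATNAT from -71 and TATAAA from -49, and Sult2a3 holds GTTAATNAT from -51. The Sult2a8 window shown holds TATAAA from -29. It lies before the start of a shorter transcript, 8218 bases inside the longest GENCODE model. The other RefSeq window of Sult2a8 (chr7:14446588-14446837), which ends 182 bases inside that model, is not shown and holds TATAAA on the opposite strand, from -223. Sult1d1 holds GTTAATNAT from -79 and the Sult1e1 window holds none of the 4 strings. Of 32851 windows of the same length in the RefSeq table, 0.146% hold GTCATGAAC, 0.384% hold CAAAGTCCA, 0.737% hold GTTAATNAT and 12.4% hold TATAAA. The table has a window for 8 of the 10 members and for 9 of the 11 other annotated Sult genes; Sult2a1 and Sult2a2 are not among them.

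Library totals ran from 21634890 to 30461351 counts. Values below are CPM, counts per 1000000 of the library total, after scaling by the trimmed mean of M values (TMM). Eed stood at 16.8 ± 1.09 CPM (SD, n = 5) in WT baseline and 5.64 ± 1.44 in KO baseline, and at 18.4 ± 3.98 after PHx in WT and 4.62 ± 1.13 in KO; every KO library was below every WT library. The hepatocyte markers listed (11 of 12 found in the files) summed to 142628 to 163796 CPM in WT baseline and 91904 to 124076 in KO baseline. After PHx they summed to 96422.5 to 140058 CPM in WT and 52245 to 114795 in KO. TMM factors were 0.669 to 0.806 in WT baseline and 0.983 to 1.19 in KO baseline, so a scaling by library size alone moves the median log2 change of all genes in KO against WT by 0.48 at baseline and 0.38 after PHx.

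Of the 6 tested members, 1 was lower and 0 were higher in KO than in WT at baseline, at an edgeR quasi-likelihood adjusted p under 0.05 over all 14661 genes tested. Among all genes, 4.89% were lower and 11.1% higher. After PHx, 2 members were lower and 0 higher in KO, against 8.2% lower and 16% higher of all genes. From baseline to after PHx in WT, 3 members fell and 1 rose, against 8.68% and 11.4% of all genes. In KO, 2 fell and 0 rose, against 12.1% and 17.5%. The response differed between genotypes for 0 members by this test, with 1 at an unadjusted p under 0.05, while DESeq2 called 1 (and 359 of all genes); of all genes, by edgeR, 0.164% differed upwards and 0.225% downwards (57 genes, or 7 with the mouse as a block). The median log2 change of the 6 tested members was -0.23 in KO at baseline, -0.59 in KO after PHx, -1.31 for the WT response and -1.37 for the KO response, beside -0.03, -0.01, 0.04 and 0.10 for all genes. In bulk tissue, fewer cells that hold a transcript and less of the transcript per cell cannot be told apart.

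**Figure D1:**
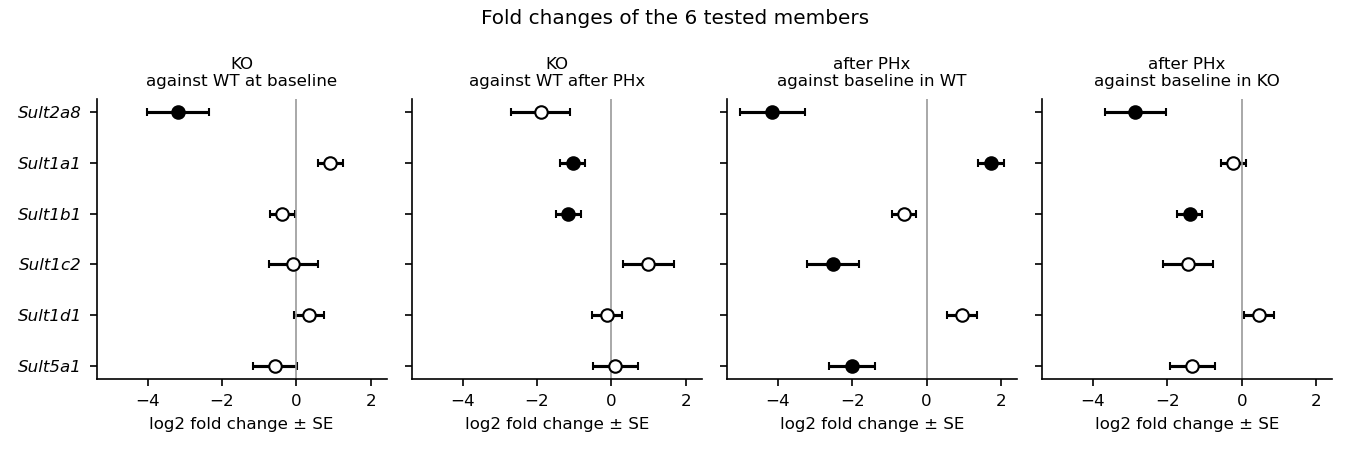
Log2 fold change (x axis) with its standard error for the 6 tested members (y axis) in 4 comparisons of 5 against 5 libraries, filled where the edgeR adjusted p was under 0.05. Sult2a8 is the member furthest below 0 in all 4 panels, and Sult1a1 changes side between the WT response (1.74) and the KO response (-0.23).

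Sult2a1 encodes a hydroxysteroid sulfotransferase that acts on DHEA and bile acids. No WT baseline library had a count of it. The KO baseline libraries held 35.3 (KO 7), 38.6 (KO 8), 21.2 (KO 10), 4.57 (KO 11) and 28.9 CPM (KO 12). After PHx the WT libraries had 4 counts in all, at most 0.0435 CPM, and the KO libraries held 50.4 (KO 7), 39.8 (KO 8), 42.7 (KO 10), 10.4 (KO 11) and 23.2 CPM (KO 12). The groups did not overlap at either stage. Against 3 counts over the WT group, the pooled KO level was at least 849-fold higher at baseline (3316 counts against 0), and after PHx the ratio was 1093 (5475 against 4 counts, 95% counting interval 427 to 4013). Mouse KO 11 had the lowest level of the KO mice both at baseline and after PHx.

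Sult2a2, the neighbouring hydroxysteroid sulfotransferase, had the same split by genotype. It was at 0 in 4 WT baseline libraries and at 1 count (0.065 CPM) in WT baseline replicate 1, and at 0 in all 5 WT libraries after PHx. The KO baseline values were 11.9 (KO 7), 14.9 (KO 8), 13.8 (KO 10), 4.2 (KO 11) and 20.8 CPM (KO 12). After PHx they were 14.2 (KO 7), 14.03 (KO 8), 20.1 (KO 10), 5.7 (KO 11) and 14.9 CPM (KO 12). Again KO 11 was lowest at both stages. The ratio of pooled levels at baseline was 1270 (1654 counts against 1, interval 228 to 50199), and after PHx the KO level was at least 574-fold higher (2158 counts against 0). Within KO, the means at baseline and after PHx were 25.7 ± 13.6 and 33.3 ± 16.2 CPM for Sult2a1 and 13.1 ± 5.98 and 13.8 ± 5.15 CPM for Sult2a2. Within mice, Sult2a1 was higher after PHx than at baseline in 4 of 5 (KO 12 was lower) and Sult2a2 in 3 of 5 (KO 8 and KO 12 were lower).

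**Figure D2:**
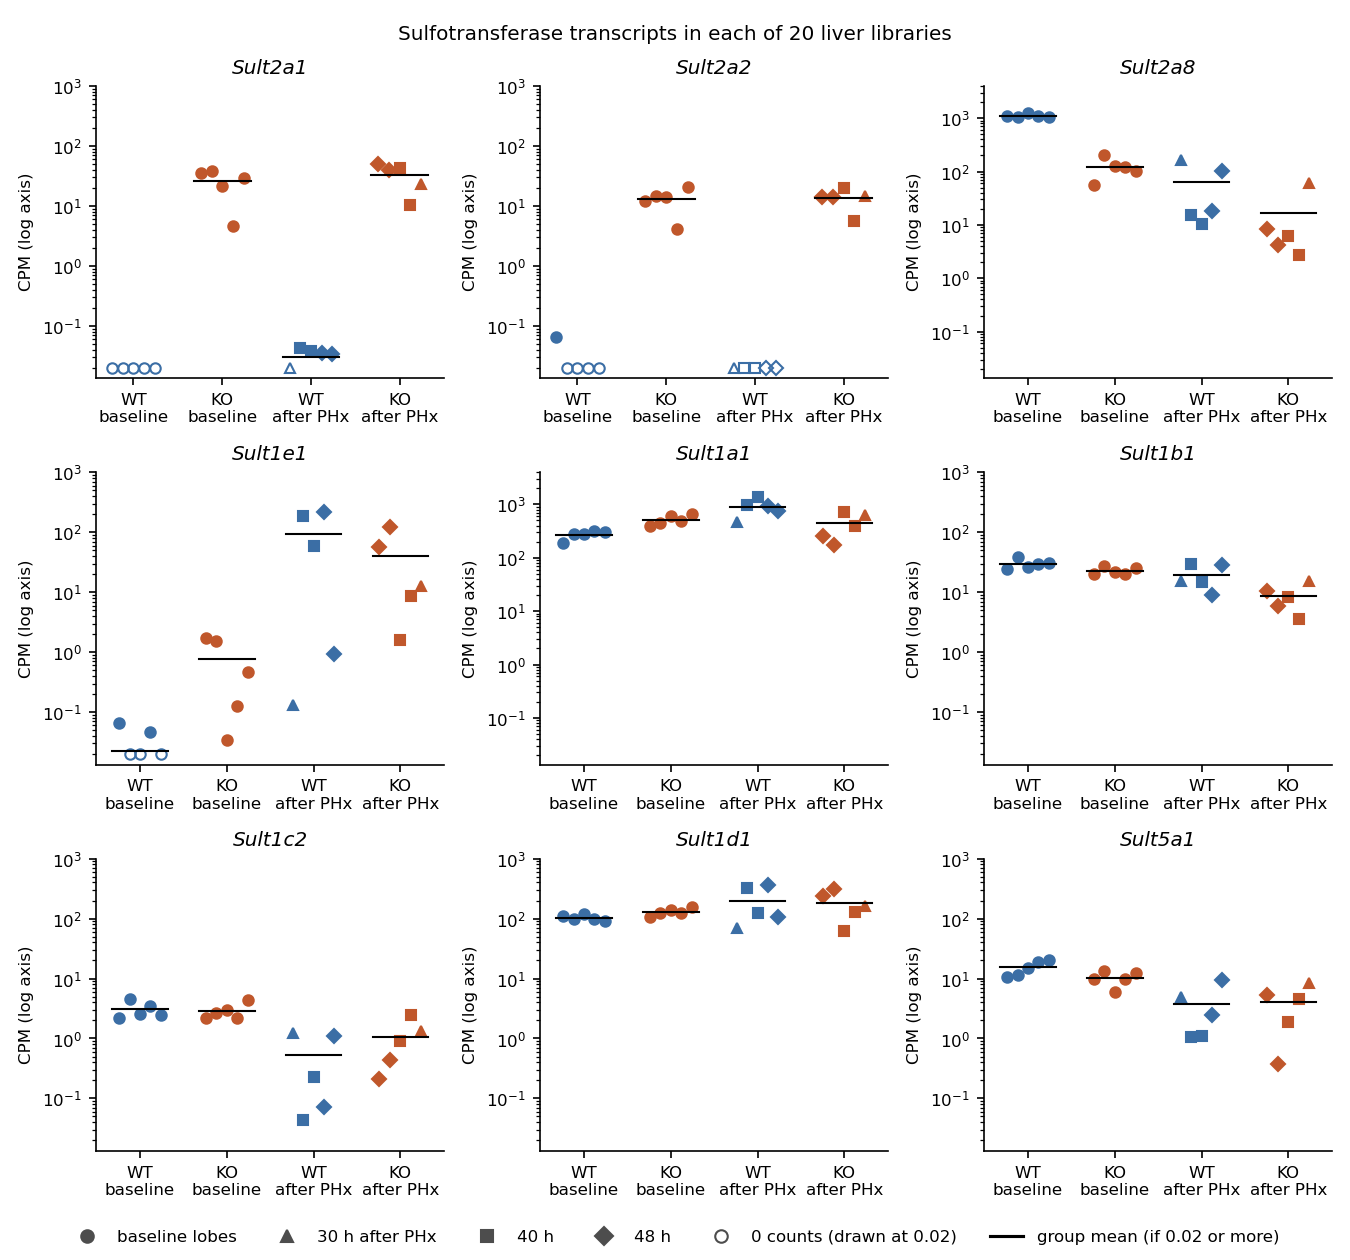
CPM on a log axis for 9 members in each of the 20 libraries, by group, with symbols for the time after PHx, open symbols for 0 counts and a line at the group mean. Sult2a1 and Sult2a2 are at or near 0 in all 10 WT libraries and between 4.2 and 50.4 CPM in all 10 KO libraries, while Sult2a8 is near 1103 CPM in WT baseline only.

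Sult2a8, an enzyme that sulfates bile acids in mouse liver, lies in the same cluster (chromosome 7, 14410686 to 14446769, minus strand) and went the other way. WT baseline libraries held 1097 (replicate 1), 1034 (WT 2), 1232 (WT 3), 1081 (WT 4) and 1071 CPM (WT 5), and KO baseline libraries held 55.9 (KO 7), 202 (KO 8), 126 (KO 10), 122 (KO 11) and 101 CPM (KO 12). The highest KO library was below the lowest WT library. The change was -3.18 ± 0.83 on the log2 scale (SE; adjusted p = 0.0123), a 9.09-fold lower level.

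In WT, Sult2a8 fell by 4.15 ± 0.87 on the log2 scale after PHx (adjusted p = 0.00294). The WT values after PHx were 166 (WT 1, 30 h), 15.4 (WT 2, 40 h), 10.4 (WT 3, 40 h), 17.9 (WT 4, 48 h) and 101 CPM (WT 5, 48 h), all under the lowest WT baseline library. In KO it fell by 2.86 ± 0.82 (adjusted p = 0.0149), to 8.24 (KO 7, 48 h), 4.28 (KO 8, 48 h), 6.29 (KO 10, 40 h), 2.78 (KO 11, 40 h) and 62.2 CPM (KO 12, 30 h). The 30 h library of each genotype was the highest after PHx. The test of the difference between the responses gave 1.28 ± 1.09 (adjusted p = 0.655). KO against WT after PHx gave -1.90 ± 0.79 (adjusted p = 0.0874), which did not pass; it passed without KO 12 (-3.53, adjusted p = 0.00123), without both 30 h libraries (-2.75, adjusted p = 0.00292) and with the time as a term (-2.19, adjusted p = 0.00241). Without WT 1, the other 30 h library, it moved the other way, to -1.13 (adjusted p = 0.317).

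The Sult2a cluster holds 8 annotated genes over 870.3 kb, from 13623967 to 14494230. Sult2a5, next to Sult2a2, had 0 counts in all 10 WT libraries and 77 and 136 counts over the KO libraries at baseline and after PHx, at least 19.7-fold and 36.2-fold higher. It passed the count filter only through the KO libraries, so no test is given. Sult2a6 was also at 0 in WT, with 26 and 50 counts in KO, at least 6.66-fold and 13.3-fold higher, and Sult2a4 had 6 and 14 counts in KO and 0 in WT; both were too low to be tested. Sult2a3 had at most 3 counts in any group. Sult2a7, beyond Sult2a8, had counts in both genotypes, at 0.534 ± 0.196 CPM in WT baseline and 1.17 ± 1.43 in KO baseline (edgeR adjusted p = 0.373). The KO baseline libraries ran from 0.0332 to 3.66 CPM, with a median of 0.789. In KO, Sult2a7 fell by 4.21 ± 0.98 on the log2 scale after PHx (edgeR adjusted p = 0.00488), to between 0 and 0.189 CPM. The WT response was -0.88 ± 0.86 (edgeR adjusted p = 0.506). The responses did not pass the edgeR test of a difference (-3.33 ± 1.28, adjusted p = 0.258). Coding identity to Sult2a1 was 94.9% for Sult2a5, 94.0% for Sult2a4, 93.7% for Sult2a3, 89.7% for Sult2a6, 81.6% for Sult2a7 and 69.4% for Sult2a8. The 4 genes of the cluster beside Sult2a1 and Sult2a2 that had counts in KO libraries and 0 in WT libraries were Sult2a3, Sult2a4, Sult2a5 and Sult2a6. Of the words of Sult2a5, 74.4% are unique and 171 are shared with Sult2a2, so part of its few counts may come from reads of that gene. Within 200 kb of the members of this cluster the files hold 24 genes besides the 8 Sult2a genes, of which 3 code for protein, and 0 had counts enough to be tested. Among the 24 are the pseudogenes Sult2a-ps1 and Sult2a-ps2, at 0 in WT and at most 0.0615 CPM in the means of the KO groups.

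**Figure D3:**
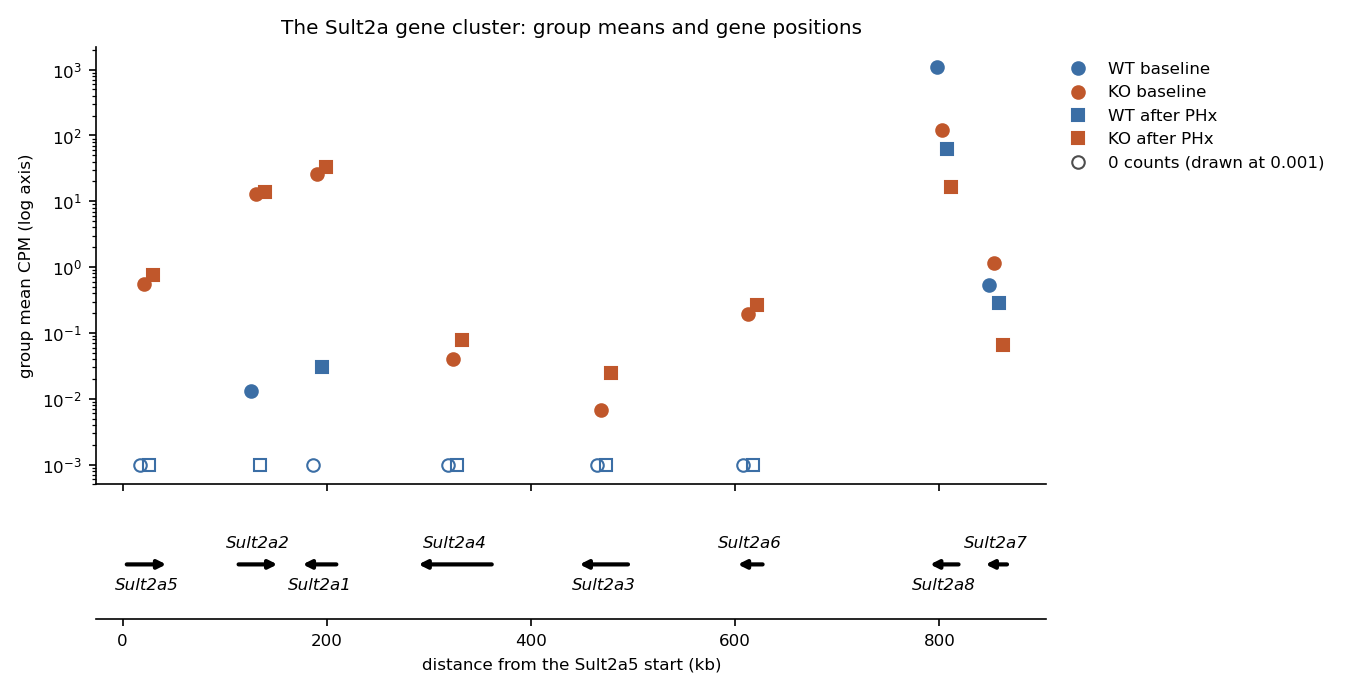
Mean CPM of each of the 8 Sult2a genes (upper panel, log axis, n = 5 libraries per group) above their position and direction of transcription, as distance from the start of Sult2a5 in kb. KO symbols lie above WT symbols for the 6 genes from Sult2a5 to Sult2a6, and below them for Sult2a8 at each stage.

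Sult1e1 encodes the estrogen sulfotransferase, which inactivates estradiol and estrone. It lies on chromosome 5 from 87575969 to 87591594 on the minus strand. WT baseline libraries had 2 counts in all, in replicate 1 (0.065 CPM) and WT 4 (0.0459 CPM). After PHx the WT libraries held 0.131 (WT 1, 30 h), 187 (WT 2, 40 h), 59.1 (WT 3, 40 h), 219 (WT 4, 48 h) and 0.927 CPM (WT 5, 48 h). So 3 of the 5 WT livers were high, and the other two, from 30 h and 48 h, were under 1 CPM, though above the highest WT baseline library. The ratio of pooled levels was 4579 (12054 counts against 2, interval 1267 to 37818). It rests on the 3 high livers, and the interval covers counting error only, not the spread between mice.

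KO libraries held some Sult1e1 already at baseline: 1.69 (KO 7), 1.56 (KO 8), 0.0345 (KO 10), 0.125 (KO 11) and 0.469 CPM (KO 12), a pooled ratio to WT of 39.2 (102 counts against 2, interval 10.6 to 328). The KO range overlapped that of WT through KO 10. After PHx the KO values were 56.8 (KO 7, 48 h), 122 (KO 8, 48 h), 1.6 (KO 10, 40 h), 8.59 (KO 11, 40 h) and 12.6 CPM (KO 12, 30 h), each above all WT and KO baseline libraries except KO 10, which was below the baseline level of KO 7. Group means after PHx were 93.2 ± 103.6 CPM in WT and 40.2 ± 50.4 in KO, with SDs larger than the means.

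Sult1d1, which sulfates dopamine and other catecholamines in mice, lies next to Sult1e1 (87554645 to 87569027). Its baseline levels were 89.5 to 117 CPM in WT and 106 to 158 in KO (0.35 ± 0.40 on the log2 scale, adjusted p = 0.601); fitted on the 10 baseline libraries by themselves, it passed as higher in KO (0.37, adjusted p = 0.0236). After PHx it spread to 68.8 (WT 1), 329 (WT 2), 124 (WT 3), 364 (WT 4) and 105 CPM (WT 5) in WT, and to 237 (KO 7), 316 (KO 8), 61.3 (KO 10), 130 (KO 11) and 160 CPM (KO 12) in KO. Ordered by Sult1e1, the 5 WT libraries after PHx were also in order of Sult1d1, and so were the 5 KO libraries, a likeness chosen after the values were seen. The WT response was 0.95 ± 0.41 (adjusted p = 0.103), the KO response 0.48 ± 0.40 (adjusted p = 0.377), and KO against WT after PHx -0.13 ± 0.40 (adjusted p = 0.844), a sign that flips to 0.33 under library size alone. Without WT 1, or without WT 5, the WT response passed (1.17 and 1.16, adjusted p = 0.0361 and 0.0495), as it did with library size alone (1.29, adjusted p = 0.0264).

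Mki67, a marker of cells in cycle, was low where Sult1e1 was high in WT. It stood at 82.3 (WT 1), 0.217 (WT 2), 14.2 (WT 3), 0.284 (WT 4) and 327.9 CPM (WT 5), and the 2 livers with the most Sult1e1 had the least Mki67. In KO after PHx, Mki67 was 3.42 (KO 7), 8.17 (KO 8), 118.5 (KO 10), 25.3 (KO 11) and 3.65 CPM (KO 12), with the most in the library with the least Sult1e1. The part of this in the levels of Sult1e1 and Sult1d1 was not tested. The 5 genes with the most similar profile to Sult1e1 over the 20 libraries, by the mean absolute difference of centred log2(CPM + 1) among 12547 genes, were Lepr (0.99), Pdk4 (1.00), Cidec (1.05), Plin4 (1.05) and Ivl (1.06). Lepr, the leptin receptor, was at 4.06, 54.3, 6.58, 215 and 1.72 CPM in WT 1 to 5 after PHx. Pdk4, a kinase that limits pyruvate oxidation, was at 10.9, 614, 40.9, 1020 and 34.1 CPM in the same libraries. Both were highest in WT 4 and WT 2, as Sult1e1 was. In KO 7, 8, 10, 11 and 12 after PHx, Lepr was at 213, 189, 20.7, 36.5 and 103 CPM and Pdk4 at 1691, 1461, 28.3, 335 and 1615 CPM. There the order differed from that of Sult1e1, with KO 7 highest for both and Pdk4 in KO 12 above KO 8.

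**Figure D4:**
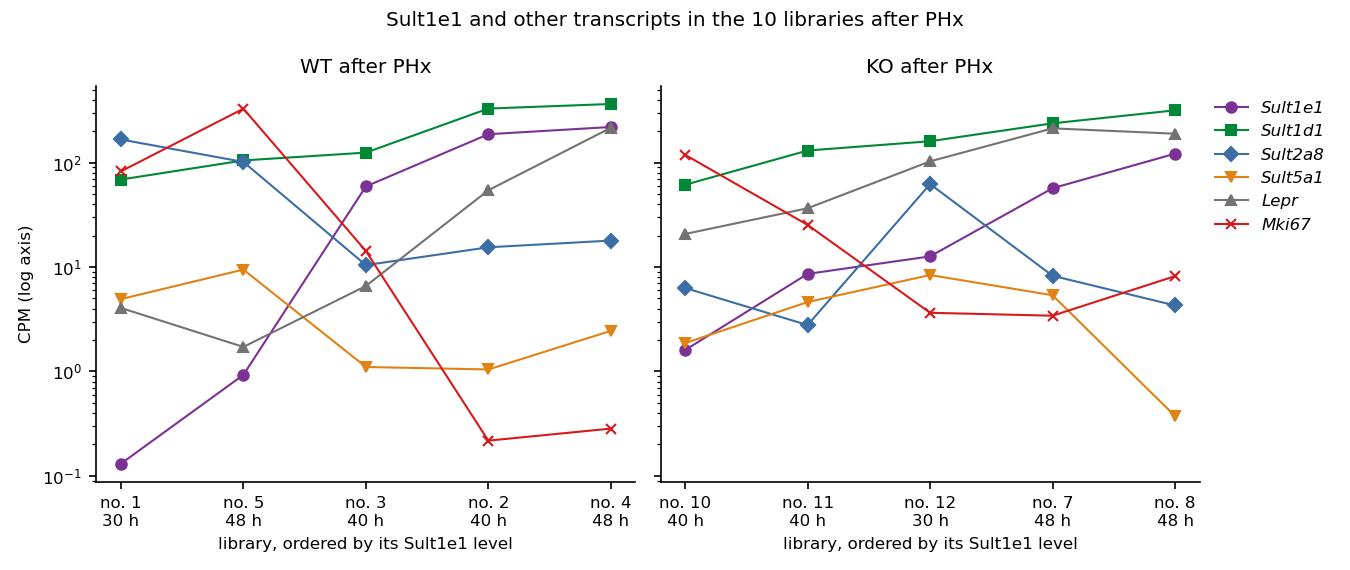
CPM on a log axis of Sult1e1, Sult1d1, Sult2a8, Sult5a1, Lepr and Mki67 in the 5 WT and the 5 KO libraries after PHx (x axis, mouse number and hours), ordered by Sult1e1. Sult1d1 rises along the order in both panels, from 68.8 to 364 CPM in WT and from 61.3 to 316 in KO, while Mki67 is lowest where Sult1e1 is high in WT.

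Sult1a1, the main phenol sulfotransferase of liver, lies on chromosome 7 from 126672865 to 126676432 (minus strand). WT baseline values were 185 (replicate 1), 278 (WT 2), 281 (WT 3), 315 (WT 4) and 305 CPM (WT 5). After PHx the WT values were 470 (WT 1), 978 (WT 2), 1372 (WT 3), 955 (WT 4) and 767 CPM (WT 5). All 5 were above every WT baseline library, and the gene rose by 1.74 ± 0.34 on the log2 scale (adjusted p = 0.00188), or 3.33-fold. This was the only tested member that rose with PHx in WT in the fit to all libraries.

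In KO, Sult1a1 was at 391 (KO 7), 443 (KO 8), 599 (KO 10), 493 (KO 11) and 651 CPM (KO 12) at baseline, above every WT baseline library, but the change of 0.92 ± 0.33 did not pass (adjusted p = 0.0656); it passed with DESeq2 (adjusted p = 0.0406), with library size alone (1.37, adjusted p = 0.00258) and when only the 10 baseline libraries were fitted (adjusted p = 0.000613). After PHx the KO values were 261 (KO 7), 170 (KO 8), 733 (KO 10), 400 (KO 11) and 638 CPM (KO 12), on both sides of the KO baseline range, for a response of -0.23 ± 0.33 (adjusted p = 0.623). KO was lower than WT after PHx by -1.04 ± 0.33 (adjusted p = 0.0279), although 2 KO libraries lay within the WT range. That call was lost without WT 3, WT 4, KO 7, KO 8 or KO 11 (adjusted p up to 0.0894), and also in a fit of the 10 libraries after PHx by themselves (0.162) or with library size alone (-0.74, adjusted p = 0.0696). The difference between the responses was -1.96 ± 0.47 (adjusted p = 0.0711); it passed with DESeq2 (0.00793), without WT 1 (0.0432), without KO 10 (0.013), without both 30 h libraries (0.0296) and with library size alone (-2.11, adjusted p = 0.0305). Sgf29 overlaps Sult1a1 on the opposite strand and averaged 10.9 CPM over all libraries.

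Sult1b1, which sulfates thyroid hormones and small phenols, completes the chromosome 5 group (87513339 to 87538195). Baseline ranges were 24.6 to 38.0 CPM in WT and 20.4 to 27.1 in KO; the change of -0.37 ± 0.33 (adjusted p = 0.473) flips to 0.09 under library size alone. After PHx, WT libraries held 15.4 (WT 1), 29.8 (WT 2), 15.1 (WT 3), 9.0 (WT 4) and 28.1 CPM (WT 5), and KO libraries held 10.4 (KO 7), 5.86 (KO 8), 8.2 (KO 10), 3.59 (KO 11) and 15.6 CPM (KO 12). All 5 KO libraries were below the KO baseline range, with a fall of 1.40 ± 0.33 (adjusted p = 0.00538), whereas the WT response was -0.61 ± 0.33 (adjusted p = 0.194). KO was lower than WT after PHx by -1.16 ± 0.33 (adjusted p = 0.0149), with ranges that overlapped, and the call was lost without WT 5 (0.0519), without KO 8 (0.0504) or when only the 10 libraries after PHx were fitted (0.128). The responses did not pass the test of a difference (-0.79 ± 0.46, adjusted p = 0.47). Near the 3 Sult1 genes of chromosome 5, 5 other genes were tested, and 1 was lower in KO at each stage, against 4.89% and 8.2% of all genes: Ugt2a3, a glucuronosyltransferase, by -1.06 at baseline and -0.99 after PHx (adjusted p = 0.0441 and 0.0442).

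Sult1c2 (chromosome 17, 53829637 to 53846339) was a low transcript, at 2.21 to 4.6 CPM in WT baseline and 2.16 to 4.46 in KO baseline (-0.08 ± 0.65, adjusted p = 0.951, and 0.37 under library size alone). In WT after PHx it held 1.22 (WT 1), 0.0435 (WT 2), 0.228 (WT 3), 0.0709 (WT 4) and 1.10 CPM (WT 5), all below baseline, a fall of 2.51 ± 0.71 (adjusted p = 0.0167). In KO after PHx it held 0.21 (KO 7), 0.439 (KO 8), 0.915 (KO 10), 2.42 (KO 11) and 1.33 CPM (KO 12), a response of -1.45 ± 0.67 that did not pass (adjusted p = 0.106; 0.0416 without KO 11).

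Sult5a1 (chromosome 8, 123140192 to 123158315) behaved alike in WT. Its WT baseline range was 10.7 to 20.1 CPM and its WT values after PHx were 4.93 (WT 1), 1.04 (WT 2), 1.10 (WT 3), 2.45 (WT 4) and 9.44 CPM (WT 5), a fall of 2.01 ± 0.62 (adjusted p = 0.0275). Here too the livers of WT 1 and WT 5, with little Sult1e1, held the most. The call was lost without WT 4 or WT 5 at baseline or without WT 2, WT 3 or WT 4 after PHx (adjusted p up to 0.0797), and with library size alone (-1.61, adjusted p = 0.0543). In KO the ranges were 5.90 to 13.6 CPM at baseline and 0.373 to 8.38 after PHx (-1.33 ± 0.61, adjusted p = 0.102). KO against WT gave -0.57 ± 0.60 at baseline (adjusted p = 0.553) and 0.11 ± 0.60 after PHx (adjusted p = 0.915), the latter turning to -0.21 without the 30 h libraries.

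Sult3a1, an amine sulfotransferase (chromosome 10, 33857721 to 33879532), had 1 count in the 20 libraries, in WT 3 at baseline (0.0515 CPM), and 0 in every KO library. A count of 0 over a group allows up to 3 counts, or 0.0234 CPM in KO baseline and 0.0185 in KO after PHx. Among the members that are known as female genes in mouse liver, Sult2a1 and Sult2a2 thus had counts in KO and Sult3a1 was not detectable at this depth.

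At matched times, with 2 libraries per arm and a separate mean for every genotype and hour, edgeR called 1 member higher and 1 lower in KO at 40 h, where 8.61% of all genes were higher and 4.68% lower. Sult1c2 was higher (3.54 ± 0.95, adjusted p = 0.0253) and Sult1b1 lower (-1.93 ± 0.49, adjusted p = 0.0185); both calls were lost without WT 2 and without KO 11. At 48 h, 2 members were lower and 0 higher, against 10.7% and 13.7% of all genes. Sult2a8 was lower by -3.25 ± 0.67 (adjusted p = 0.0035), a call lost without WT 5 (-1.60, adjusted p = 0.0666), and Sult1a1 was lower by -1.999 ± 0.36 (adjusted p = 0.00141), with all 4 libraries that could be left out leaving an adjusted p of at most 0.0139. A lone library left in an arm was assumed to vary like the other groups.

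Between genes, levels were compared as CPM per kb of annotated exon. In WT baseline Sult2a8 came first (335.9 ± 23.1), then Sult1a1 (181 ± 34.1), Sult1d1 (41.6 ± 4.53), Sult1b1 (10.7 ± 1.89), Sult5a1 (3.46 ± 0.95) and Sult1c2 (1.66 ± 0.54). Each differed from the next by more than their SDs. In KO baseline the order was Sult1a1 (342 ± 71.7), Sult1d1 (52.9 ± 8.16), Sult2a8 (36.9 ± 16.2), Sult2a1 (25.2 ± 13.3), Sult2a2 (17.7 ± 8.07) and Sult1b1 (8.28 ± 1.10); from Sult1d1 to Sult2a2 neighbours in this order overlapped within their SDs. Counted per unique word instead, the levels in KO baseline were 37.2 for Sult2a2, 36.6 for Sult2a8 and 33.7 for Sult2a1, a rank of 3 instead of 5 for Sult2a2. Sult2a8 made up 55.3 to 64.9% of the summed length-scaled level of the members in WT baseline libraries and 4.45 to 12.9% in KO baseline libraries, where Sult1a1 made up 61.4 to 75.1%. After PHx, Sult1a1 led in both genotypes (603 ± 219 in WT and 292 ± 160 in KO), followed by Sult1d1 (80.6 ± 55.8 and 73.6 ± 40.1); this order holds for group means only. Sult1e1, at 75.02 ± 83.4 in WT, overlapped Sult1d1 and was above it in WT 2 and WT 4. In KO 8, Sult1d1 (128.6) was above Sult1a1 (113.0).

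**Figure D5:**
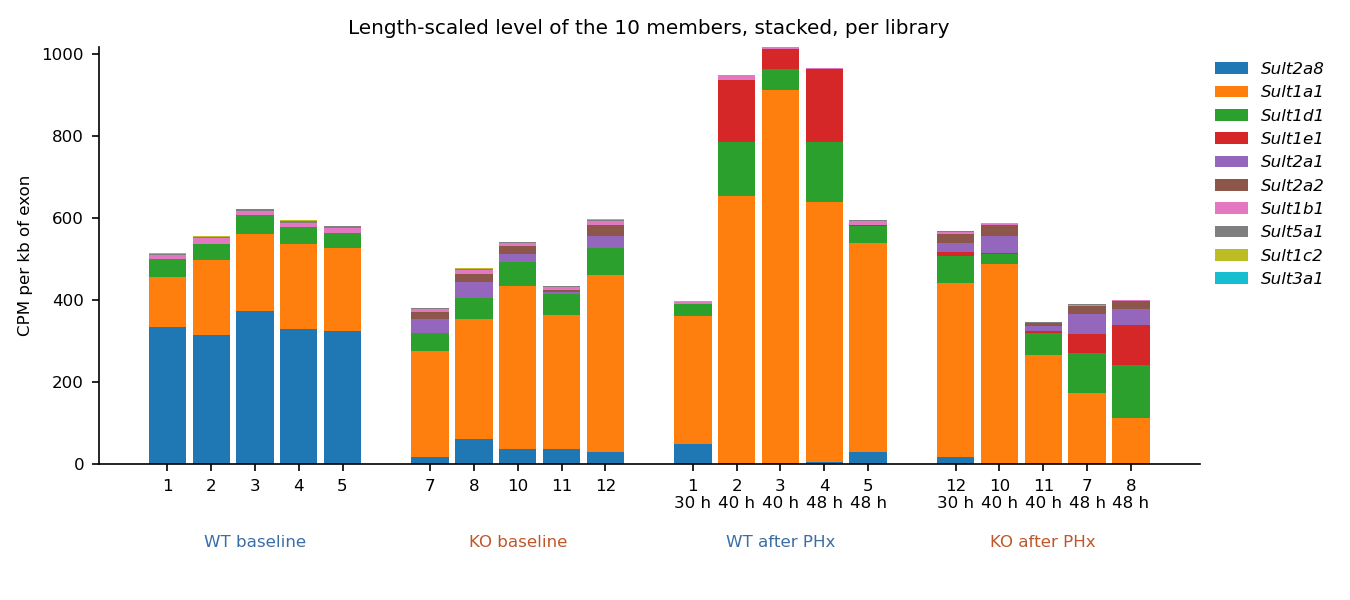
Stacked CPM per kb of exon (y axis) of the 10 members in each library (x axis, mouse number and hours after PHx). Sult2a8 is the largest part of each WT baseline bar, at 55.3 to 64.9%, and Sult1a1 of each KO baseline bar, at 61.4 to 75.1%.

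The genes that activate and supply sulfate were read beside the transferases. Of 16 listed, 14 were tested, and 0 were called between genotypes at baseline by edgeR, where 11.1% of all genes were higher and 4.89% lower. Papss2, the liver form of PAPS synthase, stood at 183 to 246 CPM in WT baseline and 143 to 259 in KO baseline (-0.06 ± 0.36, adjusted p = 0.933). After PHx it was at 76.0 to 167 CPM in WT (-1.03 ± 0.36, adjusted p = 0.0508) and fell in KO to 34.7 to 226 CPM (-1.02 ± 0.36, adjusted p = 0.0412). In all, 5 of the 14 fell and 0 rose with PHx in WT, and 6 fell and 3 rose in KO, where 12.1% of all genes fell and 17.5% rose (8.68% fell in WT); 3 of 14 is near that share. Csad, an enzyme of taurine synthesis from cysteine, fell in WT from 320 ± 108 to 15.5 ± 5.26 CPM (-4.37 ± 0.33, adjusted p = 3.74e-07) and was higher in KO than in WT after PHx (2.21 ± 0.30, adjusted p = 3.65e-05), while Cdo1, cysteine dioxygenase, was lower there (-1.30 ± 0.35, adjusted p = 0.00981). The median log2 change of this list was -0.05 in KO at baseline and -0.73 for the WT response.

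Glucuronosyltransferases, the other large family of conjugating enzymes, were lower in KO for 4 of 15 tested at baseline and 7 after PHx, with 0 higher; 9 fell with PHx in WT and 11 in KO. Of all genes, 4.89% and 8.2% were lower in KO at these stages, and 8.68% and 12.1% fell with PHx. Ugt2b1 went from 1186 ± 122 CPM in WT baseline to 287 ± 101 in KO baseline (-2.05 ± 0.65, adjusted p = 0.036). Of 19 nuclear receptors and factors known to act on Sult genes, 5 were lower and 1 higher in KO at baseline, against 4.89% and 11.1% of all genes. Nr1h4, the bile acid receptor FXR, was lower (-1.18 ± 0.31, adjusted p = 0.0127), as was Ppara (-1.07 ± 0.32, adjusted p = 0.0259). The 1 higher was Cux2, a repressor active in female liver, at 0.205 ± 0.175 CPM in WT baseline and 1.91 ± 1.32 in KO baseline. The WT baseline libraries held 20 counts of Cux2 in all, near the floor, so this is a description with no test. Nr1i3, the receptor CAR, was lower in KO after PHx (-1.20 ± 0.43, adjusted p = 0.0474). Among female-biased liver genes other than the members, 11 of 27 tested were higher and 0 lower in KO at both stages, against 11.1% higher of all genes at baseline and 16% after PHx. Some of these, such as Cyp2b9, were near 0 in WT and passed the count filter through KO libraries, so the count is a description and supports nothing. Cyp2b9 held 0.114 ± 0.134 CPM in WT baseline and 11.4 ± 10.8 in KO baseline. Male-biased genes were lower for 16 of 33 tested at baseline and 18 after PHx, with 0 higher, against 4.89% and 8.2% lower of all genes; among them was Hsd3b5 (-5.01 ± 1.21 at baseline, adjusted p = 0.00772). The direction of both lists in these libraries was known when they were drawn up, so they are no independent evidence of it. Cux2 is also on the female-biased list and Ugt2b1 on the male-biased one. Of the sulfatases, which remove sulfate, 1 of 10 tested was higher and 0 lower in KO at baseline, and of the Golgi sulfotransferases 2 of 17 were higher and 1 lower, shares near the 11.1% higher and 4.89% lower of all genes. After PHx, 1 sulfatase was higher and 1 lower, and 5 Golgi sulfotransferases were higher and 0 lower, against 16% and 8.2% of all genes. Outside liver forms, Sult4a1, a sulfotransferase of brain, had 1 count in the 5 WT baseline libraries and 70 in KO, a pooled ratio of 53.8 (interval 9.34 to 2153), and after PHx 0 and 209, at least 55.6-fold higher in KO. Sult2b1, a cholesterol sulfotransferase of skin, had 2 counts in WT baseline and 18 in KO, a ratio of 6.91 (1.65 to 61.4), and after PHx 6 and 353, a ratio of 47.0 (21.4 to 129). Both passed the count filter only through KO libraries, so these are descriptions with no test.

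Profiles like those of Sult2a1 and Sult2a2 were sought by the same measure. For Sult2a1 the closest genes were Igf2bp3 (0.53), Myo15b (0.64), Gpc3 (0.64), Calml4 (0.67) and Krt4 (0.67), and for Sult2a2 they were Hoxa10 (0.19), Krt4 (0.38), Calml4 (0.43), Sim2 (0.43) and Prom1 (0.46). Hoxa10, a homeobox gene, was at 0 CPM in both WT groups and averaged 11.5 CPM in KO baseline and 12.1 in KO after PHx. Igf2bp3, an RNA-binding protein of fetal tissues, averaged 19.2 and 31.1 CPM in KO and at most 0.231 in WT.

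Markers of cells other than hepatocytes were summed in each library. The 11 cholangiocyte markers summed to 41.9 to 87.4 CPM in WT baseline, where Sctr was at 0, and 87.5 to 408 in KO baseline, and to 43.1 to 266 and 147 to 828 CPM after PHx. The 13 macrophage markers summed to 241 to 411 CPM in WT baseline and 630 to 816 in KO baseline, and to 102 to 490 and 187 to 549 after PHx. The 11 stellate cell markers summed to 186 to 305 and 496 to 626 CPM at baseline, and to 184 to 269 and 302 to 546 after PHx. Endothelial markers (11) summed to 303 to 356 CPM in WT baseline and 356 to 441 in KO baseline, and lymphocyte markers (10) to 6.43 to 11.2 and 9.06 to 27.3; after PHx the sums were 142 to 250 and 143 to 315 CPM for endothelial and 1.13 to 5.90 and 4.20 to 8.76 for lymphocyte markers. The baseline sums did not overlap for macrophage and stellate markers and overlapped for lymphocyte markers. For cholangiocyte markers the highest WT and lowest KO sums were close (87.44 and 87.51 CPM), as they were for endothelial markers, which overlapped (356.0 and 355.5 CPM). Spp1, 1 of the cholangiocyte markers, averaged 27.5 ± 13.2 CPM in WT baseline and 137 ± 108 in KO baseline. After PHx only the sums of stellate markers did not overlap. Of 11 hepatocyte markers tested, 5 were called lower in KO at baseline and 3 after PHx, with 0 higher, against 4.89% and 8.2% lower of all genes. Called higher in KO at baseline and after PHx were 3 and 6 of 9 tested cholangiocyte markers, 7 and 4 of 13 macrophage, 7 and 5 of 11 stellate, 1 and 1 of 11 endothelial and 1 and 0 of 6 lymphocyte markers, with 0 lower, against 11.1% and 16% of all genes. Some markers called higher were near 0 in WT baseline, such as Cldn4 (0.026 ± 0.0581 CPM), so these counts are a description. The part of these cells in the levels of the members was not tested. KO 11, lowest for Sult2a1 and Sult2a2, had the highest Krt19, a cholangiocyte keratin, of the KO libraries after PHx (49.1 CPM), but not at baseline (2.62 CPM, range 1.56 to 3.43). This gene was chosen after its values were seen.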

How the data were processed

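Poly(A) RNA of 20 liver libraries had been sequenced in pairs on a NovaSeq 6000, per the labels' protocols. The deposited files hold raw counts per Ensembl gene made by the authors from uniquely mapped reads on mm10, per the series' design text, which names fastp 0.20.0 for trimming, while the submitters' processing notes name Trimmomatic 0.36; both name FastQC 0.11.5. The aligner, counter, strand setting and annotation release are not given in the sources used here, so antisense overlaps cannot be separated. Of 46603 identifiers, 46091 matched GENCODE M21 symbols and 21018 had no count.

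Counts were tested with edgeR 4.0.16 in R 4.3.3 (TMM, filterByExpr with a minimum count of 10, 14661 genes, quasi-likelihood test, means of 4 groups over 20 libraries, p adjusted by Benjamini-Hochberg across every gene tested, threshold 0.05); 40 h and 48 h came from a fit with a mean per genotype and time. DESeq2 1.42.0, library size alone, no filter, only the libraries compared, a time term, the mouse as a block and each library left out were alternatives. The 9 mouse numbers that the titles give at both stages pair those samples as the same animal; deviations from group means correlated at 0.01 to 0.10 within the 4 WT mice and -0.06 to 0.20 within the 5 KO mice, against -0.08 to 0.09 and -0.23 to 0.28 between mice. Folds against a group at 0 use 3 counts over the group; intervals are exact 95% counting intervals and cover counting error only. In simulated counts, 80.5% of 200 genes with a log2 change of 2 among 14661 were recovered for KO against WT at baseline and 68% after PHx. The simulated libraries were independent, with a level per gene common to all groups and as many genes raised as lowered. The data differ in this, so these shares need not hold for them.

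The members and lists were chosen with earlier results of these data known. Genes named beside the members are, per list and comparison, up to 3 called genes with the largest change and a mean of at least 1 CPM, Eed as a check, coding neighbours within 200 kb, and 5 genes by likeness of profile; the other Sult genes with a mean under 1 CPM, Mki67, Papss2 and Krt19 fall outside this rule and were chosen after their values were seen.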

Additional observations from a re-analysis of the deposited data

Results flagged for a closer look

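In 35 groups of 5 libraries with a range above 0, 5 had a library whose gap to its nearest neighbour exceeded 0.71 of the group's range; chance alone gives about 1 in 20. Sult2a8 in KO after PHx was highest in KO 12, the 30 h library, at 62.16 CPM (gap 0.908 of the range). Sult1a1 in WT baseline was lowest in replicate 1, at 185.4 CPM (0.714), the library whose title carries no mouse number. The other three rest on single counts: Sult2a2 in WT baseline was highest in replicate 1 at 0.06501 CPM, Sult3a1 in WT baseline was highest in WT 3 at 0.05146 CPM, and Sult2a1 in WT after PHx was lowest in WT 1 at 0.0 CPM.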

How the results depend on the processing

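Over all alternatives, values of the tested members kept direction and side of the threshold in 557 cases, passed it in 22, lost it in 21 and changed sign in 19. With library size alone, members called became 2 at baseline (from 1), 1 after PHx (from 2) and 1 for the difference of responses (from 0). Over all genes, calls at baseline went from 2348 to 3634 with that scaling. Signs turned for Sult1b1 (0.0901) and Sult1c2 (0.37) at baseline and Sult1d1 after PHx (0.33). With only the libraries compared, members called became 3 at baseline and 0 after PHx, while calls over all genes went from 2348 to 5242 and from 3544 to 1345. DESeq2 called 1 for the KO response, where it gave Sult2a8 no p, and 1 for the difference. Without the 30 h libraries, chosen after seeing the data, 1 was called for the difference and Sult5a1 turned to -0.21 after PHx. With the mouse as a replicate block, members called were 4 (WT response), 2 (KO response) and 0 (difference), as without it.

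Leaving out each library gave 1 member called at baseline, 0 to 3 after PHx, 3 to 5 for the WT response, 2 to 3 for the KO response, 0 to 1 for the difference, 0 to 3 at 40 h and 1 to 3 at 48 h. Log2 changes that turned ranged from -0.29 to 0.11 (Sult1c2, baseline), -0.44 to 0.16 (Sult1d1, after PHx), -0.32 to 0.80 (Sult5a1, after PHx), -0.35 to 2.06 (Sult2a8, difference) and, at 48 h, -1.84 to 2.06 (Sult1c2), -0.48 to 1.29 (Sult1d1) and -4.02 to 0.14 (Sult5a1). Over all alternatives together, calls over all genes ran from 1644 to 5242 at baseline (2348), 1345 to 5126 after PHx (3544), 1993 to 4378 for the WT response (2950), 2878 to 6037 for the KO response (4331), 7 to 708 for the difference (57), 220 to 3112 at 40 h (1949) and 2084 to 4525 at 48 h (3567). The causes of these shifts were not tested. Genes near 0 counts, such as Sult3a1, are limited by depth.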
